A study of Caenorhabditis elegans with 2 samples.

Results

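The genes K12H4.5, tasp-1, K01G5.10, ftt-2, M01F1.9, atx-2 and ecps-1 of Caenorhabditis elegans were picked for the high signal of the ZTF-16 ChIP-seq peaks in their promoter windows. They are 7 of 19973 protein-coding genes on the 6 nuclear chromosomes. The promoter window covered 1000 bp before and 200 bp after the annotated 5' end of the gene, and a gene held a peak when the peak's summit fell inside it. The chosen genes rest on 5 distinct strong summits, because tasp-1 and K01G5.10 share one and atx-2 and ecps-1 share another, so the 7 genes are not 7 independent sites.

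Chromatin came from strain OP558, which carries the unc-119(tm4063) mutation on chromosome III and wgIs558, an integrated transgene for ZTF-16 with a GFP and FLAG tag at its carboxyl end. Whole late embryos of mixed sex, collected 5 hours after bleach synchronisation, were sonicated, and tagged protein was recovered with an antibody against GFP. The series has 1 group of 2 biological replicates and no second condition, the transgenic line stands for the endogenous protein, and whole embryos mix all cell types. On assembly ce11, replicate 1 had 21235 listed peaks and replicate 2 had 18242, the relaxed pooled list had 14968, and 822 peaks passed the irreproducible discovery rate (IDR) step, which weighs how alike peaks rank between replicates. No read numbers are in the lists, so depth is unknown, and each peak's signal value is the authors' own. Ranks are taken within a list, and signal is set across lists only as the ratios given further on.

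ZTF-16 is a C2H2 zinc-finger protein related to the Hunchback and Ikaros transcription factors. Factors of this kind contact short DNA sequences with their fingers, and in ChIP-seq a peak's summit marks where the recovered fragments are densest. In the worm, some promoters are known to be recovered with many unrelated factors. No peak list from another factor or from animals without the tag was analysed, so whether other factors are recovered at these 5 sites was not tested.

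The 101 bases centred on each strong summit, 50 to either side, carry what the results below refer to and are therefore printed here, from the RefSeq genome of assembly WBcel235 (the same assembly as ce11), plus strand, 5' to 3'. Capitals mark GCGCGC, which reads the same on both strands, in 3 of them, and GGGAA or its reverse complement TTCCC, a core of the sites known for the mammalian Ikaros protein, in the other two. None of the 5 stretches overlaps an annotated untranslated region. They lie at chrIII:8043911-8044011 for K12H4.5, chrIII:10759201-10759301 for tasp-1 and K01G5.10, chrX:11605897-11605997 for ftt-2, chrIII:3499975-3500075 for M01F1.9 and chrIII:10461283-10461383 for atx-2 and ecps-1.
K12H4.5: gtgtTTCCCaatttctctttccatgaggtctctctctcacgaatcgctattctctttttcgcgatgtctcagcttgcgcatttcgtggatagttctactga
tasp-1 and K01G5.10: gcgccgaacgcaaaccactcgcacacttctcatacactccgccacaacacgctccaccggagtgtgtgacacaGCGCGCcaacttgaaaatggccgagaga
ftt-2: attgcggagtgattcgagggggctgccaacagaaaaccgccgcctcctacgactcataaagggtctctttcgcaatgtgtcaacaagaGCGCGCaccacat
M01F1.9: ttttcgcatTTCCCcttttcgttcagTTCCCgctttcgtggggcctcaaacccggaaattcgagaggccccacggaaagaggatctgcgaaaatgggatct
atx-2 and ecps-1: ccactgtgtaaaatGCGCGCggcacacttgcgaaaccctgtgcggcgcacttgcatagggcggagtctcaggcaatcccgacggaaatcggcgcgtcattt

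All 7 genes had an IDR-thresholded summit in the promoter window, as did 658 of all protein-coding genes (3.29%), and since the genes were picked for this the count is a description and nothing is read from it. A relaxed pooled summit lay in the window of 23.5% of protein-coding genes. When the 658 genes were put in order of their strongest pooled signal, K12H4.5 came first, tasp-1 and K01G5.10 shared places 3 and 4, ftt-2 was 5, M01F1.9 was 10, and atx-2 and ecps-1 were 11 and 12. Between them stood 5 unlisted genes, so the 7 are not simply the top of the order. These were the chemoreceptor-type gene sre-23 (signal 519.6), the ribosomal protein gene rpl-3 (409.1), T02E1.2 (396), the glutamyl-tRNA synthetase gene ears-2 and uncp-18 (both 376.7, on 1 summit). The lowest signal of a listed gene was 368.4, and the 3 genes next below were T13C5.6 with 341.2 and the histone genes his-68 and his-67 with 308.5, a summit and value that alg-5 shares.

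**Figure D1:**
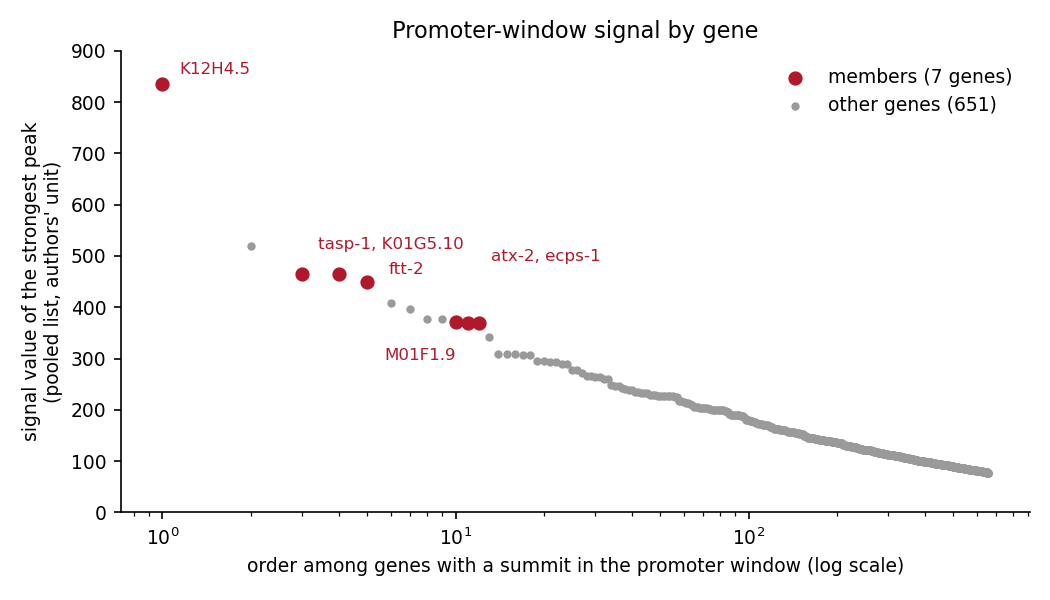
Signal value of the strongest IDR-thresholded peak in the promoter window (vertical axis, authors' unit, pooled list) for 658 protein-coding genes in order of that value (horizontal axis, log scale), with the 7 listed genes in red and 651 others in grey. K12H4.5 stands alone at 835.2, and the listed genes end at 368.4, above T13C5.6 at 341.2.

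K12H4.5 had the strongest peak of every list. Its gene (WBGene00019680, III:8044487 to 8044780, plus strand) is short and RefSeq names its product only as an uncharacterized protein. The signal was 438 in replicate 1 and 396.1 in replicate 2, rank 1 in each, and 835.2 in the pooled list. The summit was 530 bp upstream of the 5' end in replicate 1, 522 bp in replicate 2 and 526 bp in the pooled list (III:8043961, peak 8043795 to 8044154), so the replicates placed it within 8 bp of each other. The nearest other pooled summit was 5831 bp away. The summit is intergenic, in the gap of 1611 bp between K12H4.5 and the divergent gene K12H4.6.

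The K12H4.5 window was the only one of that neighbourhood to take the peak, by a small margin. The summit lay 1086 bp upstream of K12H4.6 and 1056 bp upstream of spcs-3, a gene named for a signal peptidase complex subunit that begins 530 bp downstream of the K12H4.5 start on the same strand. Both miss the 1000 bp window by under 100 bp. Which of the 3 genes the site serves was not tested.

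The tasp-1 and K01G5.10 genes face away from each other across 784 bp, with 1 strong peak between them. Taspase, the product named for tasp-1 (WBGene00010480, III:10759307 to 10763021, plus strand), is known in mammals as a protease that cuts MLL-type histone methyltransferases and the general factor TFIIA. The product of K01G5.10 (WBGene00010481, III:10757641 to 10758522, minus strand) is named by RefSeq as a haloacid dehalogenase-like hydrolase domain protein. The signal was 244.4 in replicate 1 (rank 5), 223.2 in replicate 2 (rank 7) and 465.5 in the pooled list (rank 5). The replicates placed the summit 4 bp apart, the closest of the 5 sites.

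The summit at III:10759251 lay far nearer to tasp-1 than to K01G5.10. It was 56 bp upstream of the tasp-1 5' end and 729 bp upstream of that of K01G5.10. Ensembl gives tasp-1 3 different transcript starts, which put the summit between 56 and 418 bp upstream, and the RefSeq start puts it 134 bp upstream. The next gene beyond K01G5.10 on its strand, the RING-finger gene rnf-113, starts 1611 bp from the summit.

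A second, much weaker peak stood in the same windows, 147 bp downstream of the tasp-1 start and 932 bp upstream of that of K01G5.10. Its signal was 16.4 in replicate 1 (rank 15860), 23.6 in replicate 2 (rank 4337) and 36.1 in the pooled list (rank 7334), close to the pooled median of 35.9. It was not in the IDR-thresholded list. It lies 203 bp from the strong summit.

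The ftt-2 gene encodes a 14-3-3 protein, one of a family that binds phosphorylated partners and in the worm is known to hold the FOXO factor DAF-16 in the cytoplasm. It lies on the X chromosome (WBGene00001502, X:11603708 to 11605419, minus strand), the only one of the 7 genes not on chromosome III. Its window held 2 IDR-thresholded summits and no other protein-coding window took either. The stronger, at X:11605947, had signal 223.2 in replicate 1 (rank 7), 234.3 in replicate 2 (rank 6) and 448.9 in the pooled list (rank 7). It was the only strong site of the 5 with a higher rank in replicate 2 than in replicate 1.

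The weaker ftt-2 summit, at X:11606150, had signal 86.1 in replicate 1 (rank 153), 129.6 in replicate 2 (rank 43) and 174.9 in the pooled list (rank 132). Both ftt-2 summits were shifted by the same length between replicates. The stronger lay 529 bp upstream of the 5' end in replicate 1 and 484 bp in replicate 2, and the weaker 732 and 686 bp, offsets of 45 and 46 bp. In the pooled list they lay 528 and 731 bp upstream, at the replicate 1 positions to within 1 bp.

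Both ftt-2 summits fell inside genes annotated as unclassified non-coding RNA on the same strand as ftt-2. The stronger was inside F52D10.7 (X:11605853 to 11605989) and the weaker inside F52D10.9 (X:11606129 to 11606277). A further gene of this class and strand, F52D10.12 (X:11605558 to 11605779), lay within 200 bp of the stronger. The share of other promoter summits inside such genes was not computed. The gaps to the neighbouring protein-coding genes, F52D10.2 and F52D10.4, were 11987 and 12050 bp, so no other protein-coding start was close.

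M01F1.9 took its peak from inside another gene. The M01F1.9 gene (WBGene00010815, III:3493814 to 3499057, minus strand) has a RefSeq product with an arrestin amino-terminal domain. The signal was 209.9 in replicate 1 (rank 10), 165.2 in replicate 2 (rank 19) and 370.8 in the pooled list (rank 14). The summit at III:3500025 lay 968 bp upstream of the M01F1.9 5' end in replicate 1 and the pooled list and 984 bp in replicate 2, near the far edge of the window. It fell in an intron of M01F1.8 (intron III:3499611 to 3500780, 1170 bp), which lies upstream on the same strand, and 2524 bp downstream of the M01F1.8 start. Of the 5 strong summits this was the only one inside a protein-coding gene.

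Only replicate 2 had a further peak in the M01F1.9 window, 12 bp downstream of the 5' end, with signal 17.3 (rank 12437). The lowest signal in that list was 15, so this peak sits near its floor. In the pooled and replicate 1 lists the strong summit was the only one in the window.

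The atx-2 and ecps-1 genes form the second divergent pair, 837 bp apart. Ataxin-2, from atx-2 (WBGene00000231, III:10461389 to 10468051, plus strand), is an RNA-binding protein known for control of translation. The product of ecps-1 (WBGene00008422, III:10452753 to 10460551, minus strand) is named for similarity to Ecm29, which in yeast is a proteasome-associated protein. Both genes hold the same 2 IDR-thresholded summits. The stronger, at III:10461333, had signal 204.9 in replicate 1 (rank 11), 164.7 in replicate 2 (rank 20) and 368.4 in the pooled list (rank 15).

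The strong and the weak summit of this pair lie at opposite ends of the gap between the genes. The strong one was 56 bp upstream of atx-2 and 782 bp upstream of ecps-1, and the weak one, at III:10460759, was 208 bp upstream of ecps-1 and 630 bp upstream of atx-2. The weak summit had signal 49.5 in replicate 1 (rank 562), 56.8 in replicate 2 (rank 386) and 101.5 in the pooled list (rank 464). Replicate summits were 11 bp apart at the strong site and 17 bp at the weak one. Ensembl gives atx-2 4 different starts, between 56 and 3123 bp downstream of the strong summit.

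**Figure D2:**
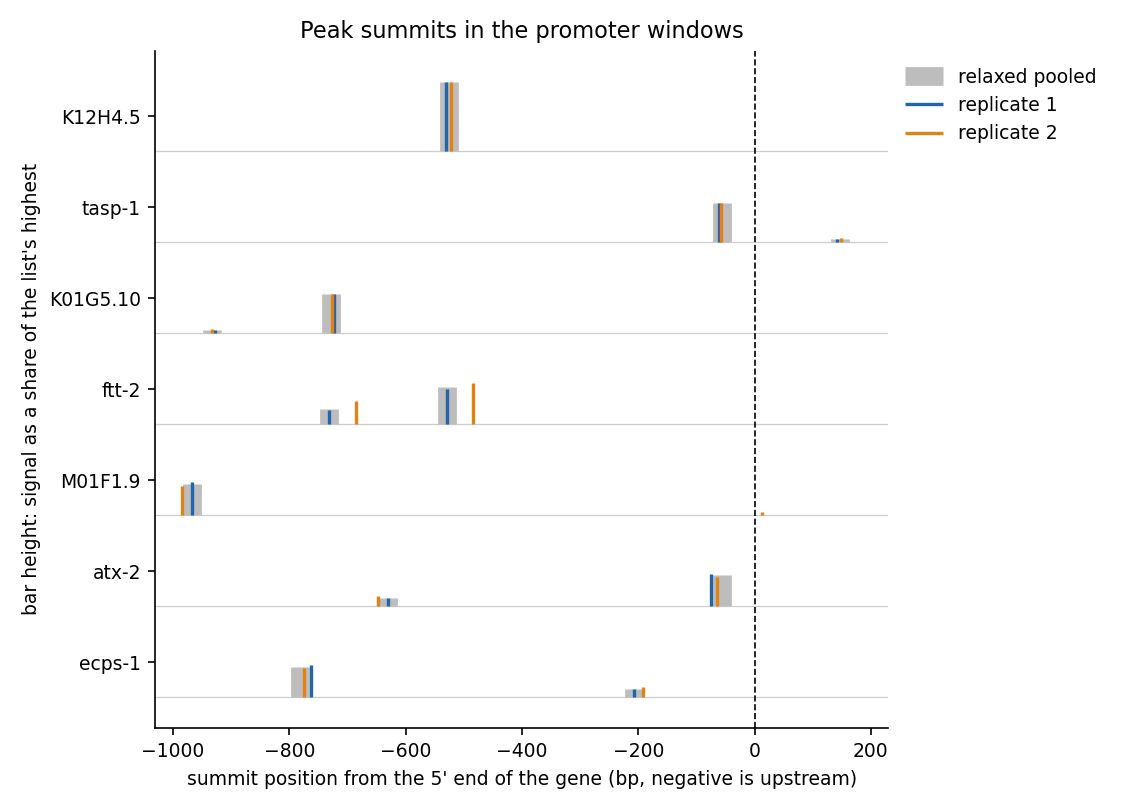
Summits of the relaxed pooled list (wide grey bars) and of replicates 1 and 2 (thin lines) along each gene's promoter window, in bp from the 5' end, with bar height as signal relative to the highest signal of that list. tasp-1 and atx-2 have the strong summit 56 bp upstream in the pooled list, their partners K01G5.10 and ecps-1 have the same summit 729 and 782 bp upstream, and the ftt-2 summits sit nearer the 5' end in replicate 2.

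More than 1 IDR-thresholded summit in a window was rare. It occurred in 12 of 19973 protein-coding genes (0.0601%), and ftt-2, atx-2 and ecps-1 were 3 of those 12. The nearer base for the listed genes is the 658 genes with any thresholded summit, which include all 12. All 3 were chosen on peaks of these same lists, so this is a description. The genes atx-2 and ecps-1 hold the same summits and do not count as separate cases. The ftt-2 summits lie 203 bp apart, near the smallest gap of 199 bp in the pooled list, so they may not be separate sites.

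Position within the window was not part of the choice, beyond its limits. Over the 7 genes the median distance of the strongest summit before the 5' end was 528 bp (range 56 to 968 bp), compared with 250 bp over the other 651 genes with a summit (quartiles 148.5 and 454.5 bp). Counted from the nearer gene only, the 5 strong summits lay 56, 526, 528, 968 and 56 bp away, and the other 460 promoter summits a median of 218 bp (quartiles 122 and 365 bp). The listed genes therefore cover nearly the whole upstream part of the window, with tasp-1 and atx-2 close to the start and the other 3 sites beyond the upper quartile of the rest. With 5 sites chosen after their values were seen, no test was made. With a window from 500 bp upstream to 100 bp downstream, only tasp-1, atx-2 and ecps-1 kept a thresholded summit, and that of ecps-1 was the weak one (signal 101.5, place 281 in the order of genes).

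A summit shared by 2 or more protein-coding windows was seen at 2 of the 5 strong summits (40%) and 183 of the 460 other promoter summits (39.8%). No strong or weak summit of the 7 genes lay within 200 bp of a tRNA, snoRNA, snRNA, rRNA or miRNA gene, and 57 of the other 460 did (12.4%). Those classes leave out unclassified non-coding RNA, the annotation of the genes that both ftt-2 summits fell inside. With so few sites, neither a difference nor a likeness is read from these counts. Of the 5 unlisted genes with a signal above the lowest listed one, sre-23 and T02E1.2 had a snoRNA gene that close to the summit. On chromosome III lay 4 of the 5 strong summits and 81 of the other 460 (17.6%), and 13.2% of protein-coding genes are on that chromosome.

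The replicates placed the strong summits close together. The offset between replicate summits was 8 bp at K12H4.5, 4 bp at tasp-1 and K01G5.10, 45 bp at ftt-2, 16 bp at M01F1.9 and 11 bp at atx-2 and ecps-1, a median of 11 bp. The median was 26.5 bp over 458 other promoter summits matched in both replicates within 200 bp (quartiles 10 and 53 bp). The ftt-2 site was above that median and the other 4 below it. Because these sites were chosen for signal, how far a closer match goes with higher signal was not tested.

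**Figure D3:**
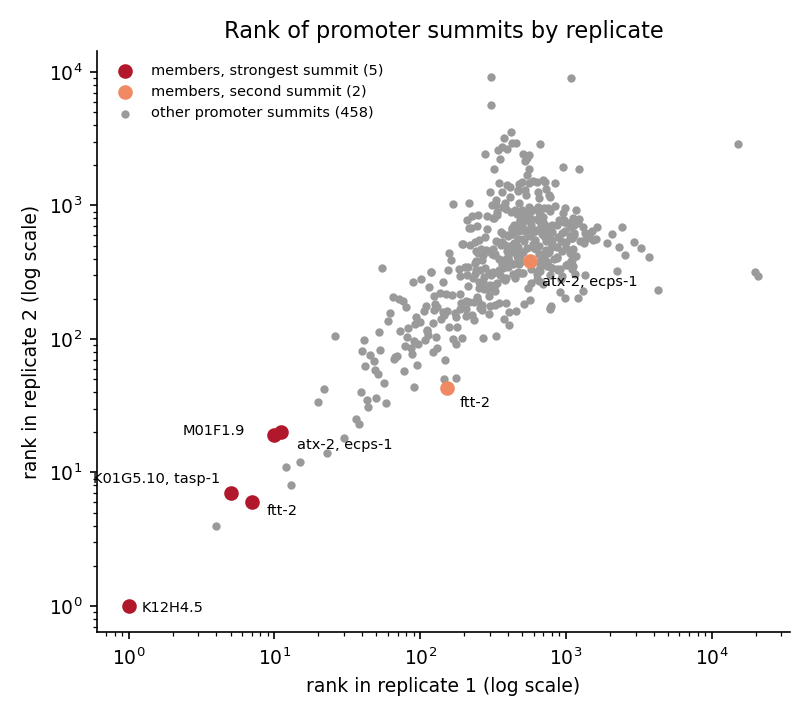
Rank of each promoter summit by signal in replicate 1 (horizontal axis, log scale) and replicate 2 (vertical axis, log scale), for the 5 strong summits (red), the 2 weaker thresholded ones (orange) and 458 other promoter summits matched in both replicates (grey). The strong summits rank 20 or better in each replicate, and the weaker ftt-2 summit ranks 153 in replicate 1 and 43 in replicate 2.

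The pooled signal was close to the sum of the replicate signals at the strong sites. The pooled value divided by that sum was 1.001 at K12H4.5, 0.995 at tasp-1 and K01G5.10, 0.981 at ftt-2, 0.989 at M01F1.9 and 0.997 at atx-2 and ecps-1. Over 458 other promoter summits its median was 1.004 (quartiles 0.986 and 1.02). The weaker ftt-2 summit was lower, at 0.811, and the weaker atx-2 and ecps-1 summit was at 0.956. The pooled and replicate values are thus not independent measurements.

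Replicate 1 had the higher signal value at 4 of the 5 strong sites. The ratio of replicate 1 to replicate 2 was 1.11 at K12H4.5, 1.095 at tasp-1 and K01G5.10, 0.953 at ftt-2, 1.27 at M01F1.9 and 1.24 at atx-2 and ecps-1, with a median of 1.03 at the other promoter summits (quartiles 0.849 and 1.26). The weaker summits were at 0.664 for ftt-2 and 0.871 for atx-2 and ecps-1. How the lists were scaled is not stated and their depth is unknown, so a ratio is read only against the other sites. All 5 strong sites lay close to or inside the quartiles of the rest, and the weaker ftt-2 summit lay below them.

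The thresholded peaks at these genes were narrower than the full width, as were all of the first 15 peaks of the thresholded list. Most peaks of the pooled list have the full width of 440 bp, but the strong peaks were 360 bp wide at K12H4.5, 286 bp at tasp-1 and K01G5.10, 334 bp at ftt-2, 275 bp at M01F1.9 and 278 bp at atx-2 and ecps-1. The weaker thresholded peaks were 126 bp wide at ftt-2 and 110 bp at atx-2 and ecps-1, equal to the lowest width in the list. Among the other 460 promoter peaks 28 were narrower than 440 bp (6.09%). Width went with rank over the whole thresholded list, where 46 of the first 50 peaks were narrower than 440 bp against 12 of the next 50 and 12 of the remaining 722. Median width was 293 bp over the first 15 peaks and 221 bp over the first 50. The 5 strong peaks were therefore not narrow for their rank. At the 5 strong sites the peaks were below the full width in both replicates too, 219 to 349 bp wide in replicate 1 and 151 to 329 bp in replicate 2. The weaker peaks, at pooled ranks 132 and 464, were narrow in the pooled list alone, with the full 444 bp in replicate 1 and 436 bp in replicate 2.

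The distance between paired summits was 203 bp at both ftt-2 and the tasp-1 and K01G5.10 pair, and 574 bp at atx-2 and ecps-1. In the relaxed pooled list no 2 neighbouring summits were closer than 199 bp, and 465 of 14962 gaps were 200 to 210 bp long, 46 of them exactly 203 bp. Gaps of 400 to 500 bp were nearly absent, with 8, and 84 were over 500 and up to 600 bp long. The spacing of 203 bp is thus at the lower limit that this list holds, and whether such a pair is 1 site or 2 cannot be told apart from these lists.

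**Figure D4:**
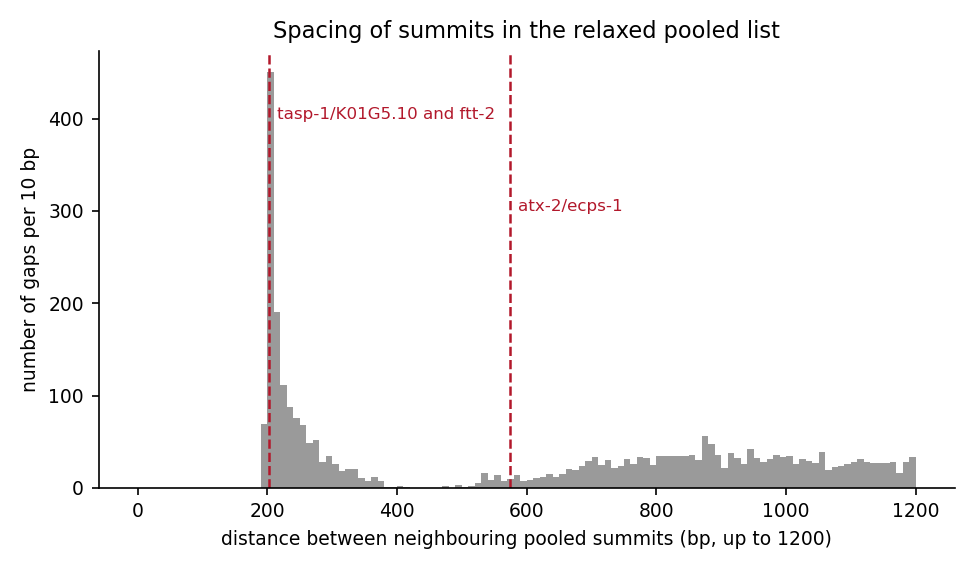
Number of gaps between neighbouring summits of the relaxed pooled list (vertical axis, per 10 bp) by gap length up to 1200 bp (horizontal axis), with dashed lines at 203 bp (tasp-1 and K01G5.10, ftt-2) and 574 bp (atx-2 and ecps-1). The first line falls in the most frequent gap lengths, just above the smallest gap of 199 bp.

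The strong summits differed in base composition. The GC content of the 101 bases was 58.4% at tasp-1 and K01G5.10, 59.4% at atx-2 and ecps-1, 54.5% at ftt-2, 52.5% at M01F1.9 and 44.6% at K12H4.5. The mean was 53.9% ± 5.92 (SD, n = 5 summits), against 48.1% ± 8.35 at the other 460 promoter summits and 33.2% ± 8.25 in the 101 bases directly upstream of all 19973 protein-coding genes. The mean of the 5 depended on the stretch, at 48.4% with 100 bp to either side and 55.7% with 25 bp. No value for the other summits is given at those lengths. Of the other promoter summits, 31 had as much GC as the atx-2 and ecps-1 site or more. K12H4.5, the strongest site, was the least GC-rich of the 5, with 342 of 460 other summits at or above it. The weaker summits had 47.5% at ftt-2 and 39.6% at atx-2 and ecps-1.

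**Figure D5:**
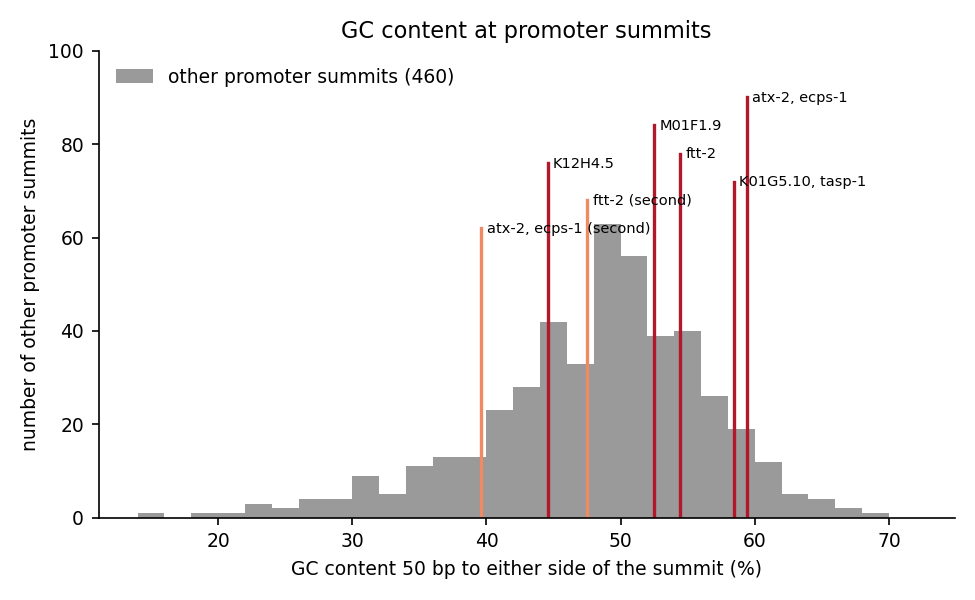
GC content of the 101 bases around promoter summits, as a histogram of the other 460 (grey, vertical axis in summits) with vertical lines at the strong (red) and weaker (orange) summits of the 7 genes; the height of a line has no meaning. The strong summits run from 44.6% at K12H4.5 to 59.4% at atx-2 and ecps-1.

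GCGCGC occurred at 3 of the 5 strong summits, those of tasp-1 and K01G5.10, ftt-2, and atx-2 and ecps-1. It was in 60 of the other 460 promoter summit windows of the same length (13.04%) and in 223 of the 101-base stretches upstream of all protein-coding genes (1.12%). These shares are not matched for GC content. The 3 windows with GCGCGC were the most GC-rich of the 5, at 54.5 to 59.4%. The means were 48.1% at the other summits and 33.2% in the upstream stretches. GCGCGC appeared once in each of the 3 printed sequences, with its nearest base 23, 38 and 31 bp from the summit, and in neither weaker summit window. The match is a description of letters and names no bound site.

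The other motifs, also searched on both strands, were each found at 2 or none of the 5 strong summits. GGGAA was at K12H4.5 once (42 bp from the summit) and at M01F1.9 in 2 places, in 18.5% of the other promoter summit windows and in 17.9% of upstream stretches. GAGAGA was at K12H4.5 3 times, as overlapping copies in 1 run, and at tasp-1 and K01G5.10 once, in 17.8% of the other windows and 8.86% of upstream stretches. AAAAAA, an A run of the kind known for Drosophila Hunchback, was in none of the 5 windows, in 25% of the other summit windows and in 48.4% of upstream stretches. CACCTG and the palindromic cyclic AMP response element were in none of the 5, and in 1.30% and 0.435% of the other windows.

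The M01F1.9 summit is the one that carries repeated sequence. Its 101 bases hold an inverted repeat whose arms of 11 bases, in capitals, are exact reverse complements with 16 bases between them, at chrIII:3500011-3500048 on the plus strand.
M01F1.9 inverted repeat: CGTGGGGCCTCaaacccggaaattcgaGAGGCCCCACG
The summit lies inside this stretch. An inverted repeat this long or longer was found at 5 of the other 460 promoter summits (1.09%), and the longest at the other 4 strong summits had arms of 8 bases, at tasp-1 and K01G5.10.

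Part of the M01F1.9 sequence also matched 13 other places on 5 chromosomes, by blastn at 80% identity or more over 50 bases or more. The alignments were 50 to 61 bases long and 80 to 96% identical. The other 4 strong summits and both weaker ones had no such match, and 87 of the other 460 promoter summits had at least 1 (18.9%). Of the 13 places, 4 had a relaxed pooled summit within 200 bp and 2 an IDR-thresholded one. The share of other genomic places with a summit that close was not computed, so nothing is read from these counts. The 2 places with a thresholded summit lay close together on chromosome II. Their summits were at II:11534783 (signal 154.5, rank 179) and II:11534984 (signal 99.4, rank 491), both intergenic. The spacing of these summits is near the smallest gap of the pooled list, so they may not be separate sites. The sources used here do not say how reads that fit several places were handled, and its part in the M01F1.9 peak was not tested.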

How the data were processed

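Peak lists in narrowPeak format were used, 4 on assembly ce11, as the deposited notes describe them; the 4 ce10 lists were not used here. Column 7 is the authors' signal value per peak and column 9 the authors' −log10 q-value, whose highest value 849 pooled peaks share, so it was not used to rank. Per the notes deposited by the authors, each relaxed list was derived from alignments and 1 further input file whose content they do not state. The sources used here give no aligner, peak caller, IDR threshold or read depth. Genes came from Ensembl release 115 on WBcel235 and sequence and product names from RefSeq on the same assembly. Positions are 1-based. A replicate summit within 200 bp of a pooled one was taken as its match. Copies were sought with blastn 2.17.0, and the rest was done in Python 3.11.15 (matplotlib 3.10.9, numpy 2.4.6, pandas 2.3.3). The assignment and motif steps were tested on simulated summits and sequences.

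The genes and lists were chosen with earlier results of these data known. The named genes are the 7 listed, the nearest neighbours on each side, the unlisted genes above and the 3 below the lowest listed gene, nearby non-coding genes, and up to 3 genes of each related list. Genes that share a thresholded summit with any of these are named too. The inverted repeat, the spacing, the widths, the sum of replicate signals and the genomic copies were looked at after the values were seen. No statistical test was made, because the genes were picked on the same measurements and the design has 1 group.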

Additional observations from a re-analysis of the deposited data

How the results depend on the processing

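Of 37 alternative values computed for the 7 genes, 30 moved by less than the spread over the sites or by under 1.5 times and 7 moved more. Counts of genes with a summit or among the first 15 follow the signal used to pick the genes. Where such a count did not move, nothing is read from it. The 4 that moved with the window from 500 bp upstream to 100 bp downstream were the genes with a thresholded summit (3 of 7), the listed genes among the first 15 in the order of genes (2, against 7 with 1000 bp upstream), the listed genes whose summit another protein-coding window shares (0, against 4) and the median distance to the 5' end (56 bp, against 528 bp). That window leaves out K12H4.5, K01G5.10, ftt-2 and M01F1.9 by construction. The 3 that moved with 100 bp to either side of the summit were motif counts, 4 genes with GGGAA against 2, 3 with AAAAAA against 0 and 5 with GAGAGA against 3, in a stretch that is longer by construction. Counted by site these are 3, 2 and 3 of 5, beside 38.3%, 60% and 27.2% of the other promoter summits in the same stretch. Without either replicate, all 7 genes kept a summit among the 822 strongest of the other, and 7 were among the first 15 genes. The genes were picked on the replicate lists too, so both counts describe the choice. In either replicate alone, no strongest summit of the 7 genes lay near a tRNA, snoRNA, snRNA, rRNA or miRNA gene. The median distance was 522 to 530 bp. With 2000 bp upstream, or with each summit given to its nearest 5' end alone, 5 of the 7 were among the first 15. No paired analysis was possible because there is 1 group and the results come from no test. Peak width and the smallest spacing of 199 bp limit how finely neighbouring sites can be told apart.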

Other observations

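Signal in the promoter windows of genes related in function to the listed ones is given here as values, since the listed genes were picked for high signal. The 14-3-3 list holds ftt-2 itself, whose call was fixed by that choice, with par-5 and daf-16, and neither of those had an IDR-thresholded summit. The gene par-5, the other worm 14-3-3 gene, had a relaxed pooled peak with signal 49.2 (rank 2618), 490 bp upstream of its 5' end. Of 3 genes listed as taspase-linked or MLL-type, 2 had a thresholded summit. These were set-16, an MLL-type methyltransferase gene (signal 125.3, rank 300, 208 bp upstream), and pqn-51 (signal 98.9, rank 495, 95 bp upstream), while set-2 had a relaxed pooled peak with signal 48 (rank 2854). These 2 of 3 stand beside 3.29% of all protein-coding genes, and with 3 genes chosen by hand no more is read from them. The set-16 summit also lies in the promoter window of drr-2, and the pqn-51 summit in that of K11D12.14.

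None of 6 genes for RNA regulators linked to ataxin-2 had a thresholded summit, and 5 had a relaxed pooled one, beside 3.29% and 23.5% of all protein-coding genes. The highest were cgh-1, an RNA helicase gene (signal 75.2, rank 884), szy-20 (67.6, rank 1100) and pab-2, a poly(A)-binding protein gene (60.2, rank 1491). Of 33 proteasome genes matched by name, 17 had a relaxed pooled summit in the window and 1 a thresholded one, rpn-7 (signal 108.1, rank 412, 380 bp upstream). For the thresholded list that is about the share of all protein-coding genes (3.29%), and the relaxed share over all of them is 23.5%. Next came rpn-11 (72.8, rank 947) and rpn-13 (64.4, rank 1246). The rpn-7 summit also lies in the promoter window of F49C12.9.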
